A study of Mus musculus with 15 samples.

Results

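This account covers 8 genes of the integrated and oxidative stress responses, Ddit3, Atf4, Ppp1r15a, Nfe2l2, Nfe2l1, Hmox1, Gadd45a and Gadd45b, in peak lists of heat shock factor 1 (HSF1) from mouse brown adipose tissue (BAT), out of 21887 protein-coding genes. A peak was assigned to a gene when it overlapped the gene's span in GRCm38 (mm10) extended by 5 kb on each side. Of 54878 peaks in 10 libraries, 41 met this rule, and they merged into 12 regions at 7 of the 8 genes. Gadd45a had no peak in any of the 10 libraries.

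The 10 HSF1 ChIP-seq libraries form 5 groups of 2, all from BAT, the tissue that produces heat in the cold. One group carries the label TXNIP KO and was exposed to cold for 40 min. TXNIP is an arrestin that binds thioredoxin, and the labels do not say in which cells the gene was deleted. HSF1 peak lists hold no check of that deletion. The other 4 groups are wild type (WT): a pair at room temperature (RT), a pair at 40 min of cold, a pair at 4 h of cold and another pair at 40 min of cold, titled rep1.1 and rep2.1. The 40 min pairs are called the first and the second WT pair here, and the second serves as the control of the KO libraries. Which WT pair was prepared beside the KO is not stated, and the age and sex of the animals are not given in the labels used here. For all 5 groups the tissue was crosslinked in DSG (2 mM, 25 min) and then in formaldehyde (0.8%, 12 min), and the antibody was Cell Signaling 4356. No label says that replicate libraries were made from different animals, so a p-value over libraries measures only their spread, which may be technical. Of the 5 input libraries no file was analysed here.

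HSF1 is the transcription factor that activates chaperone genes when proteins misfold. It binds heat shock elements, which are alternating GAA and TTC units. The integrated stress response is a separate pathway, in which kinases phosphorylate the initiation factor eIF2α, general translation falls and the factor ATF4 (Atf4) is translated. ATF4 turns on CHOP (Ddit3), a transcription factor linked to cell death, and GADD34 (Ppp1r15a), the phosphatase subunit that reverses the phosphorylation. The oxidative branch rests on NRF2 (Nfe2l2), which escapes its inhibitor KEAP1 under oxidative stress, and on heme oxygenase 1 (Hmox1), a target of NRF2 that breaks down heme. NRF1 (Nfe2l1), a relative of NRF2, restores proteasome genes when the proteasome falls short, and it is known for this role in brown fat. GADD45 proteins (Gadd45a, Gadd45b) are small stress sensors that act on MAP kinases and on the cell cycle.

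The lists differed greatly in length, and a longer list can reach more genes. On the standard chromosomes they held 10399 and 10633 peaks in the KO libraries and 12644 and 14583 in the second WT pair. The time course held 919 and 1269 peaks at RT, 2287 and 1670 in the first WT pair at 40 min, and 123 and 351 at 4 h. The lists hold no counts, so the depth of each library is unknown, and each fold, the peak caller's ratio of signal at the summit to local background, is the authors' own value. Folds and ranks (place by −log10 p, ties sharing the best place) describe a peak within its list and are set side by side across lists only as descriptions. A yardstick of strong HSF1 binding was given by 6 chaperone genes (Hspd1, Hspe1, Hsph1, Hspa8, Dnaja1 and Hsp90ab1). All 6 had a region of both replicates in every group, and their strongest peaks stood between places 1 and 16 in every list. Hspd1 and Hspe1 have the same strongest peak, which enters the yardstick for both genes.

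The sequences that bear on these sites come from RefSeq windows of 250 bases before to 50 after each annotated start, in GRCm38.p6. First, 2 chaperone windows show what a heat shock element looks like. Capitals mark the elements of at least 3 alternating units. A peak summit lay inside each of the 2 windows in all 10 libraries.

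Hspe1, chr1:55088049-55088086 (+): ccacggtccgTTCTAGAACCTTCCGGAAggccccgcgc
Hsph1, chr5:149636278-149636310 (−): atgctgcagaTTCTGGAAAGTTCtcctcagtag

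The next window holds the strongest HSF1 peak in the neighbourhood of Ddit3. It belongs to a start site of Mbd6, a gene of the methyl-CpG-binding family that runs in the opposite direction. Capitals mark the stretch from the first to the last of the 6 summits called there, bases 64 to 139 of the window.

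Mbd6, chr10:127288969-127289268 (−): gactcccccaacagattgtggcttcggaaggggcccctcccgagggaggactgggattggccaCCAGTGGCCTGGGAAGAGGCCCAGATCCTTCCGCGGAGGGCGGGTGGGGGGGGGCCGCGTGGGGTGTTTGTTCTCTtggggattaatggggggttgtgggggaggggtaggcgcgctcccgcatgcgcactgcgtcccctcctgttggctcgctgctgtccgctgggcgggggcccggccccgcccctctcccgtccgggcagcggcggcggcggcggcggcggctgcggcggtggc

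The windows at the starts of Ddit3 and Nfe2l1 are shown as examples of windows overlapped by peaks of the KO and the second WT libraries. Start windows of Nfe2l2, Gadd45b, Atf4 and Ppp1r15a were also overlapped in some of these libraries and are not shown. In the Ddit3 window capitals mark an AP-1 site 242 bases before the start, and the Nfe2l1 window held no match to any motif searched. An AP-1 site, TGANTCA, was present in 7.81% of 32851 promoter windows.

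Ddit3, chr10:127290543-127290842 (+): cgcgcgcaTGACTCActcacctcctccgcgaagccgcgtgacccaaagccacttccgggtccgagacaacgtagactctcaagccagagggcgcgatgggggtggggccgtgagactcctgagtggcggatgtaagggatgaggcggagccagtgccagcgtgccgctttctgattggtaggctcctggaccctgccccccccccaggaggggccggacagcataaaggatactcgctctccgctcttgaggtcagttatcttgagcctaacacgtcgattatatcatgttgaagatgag
Nfe2l1, chr11:96829919-96830218 (−): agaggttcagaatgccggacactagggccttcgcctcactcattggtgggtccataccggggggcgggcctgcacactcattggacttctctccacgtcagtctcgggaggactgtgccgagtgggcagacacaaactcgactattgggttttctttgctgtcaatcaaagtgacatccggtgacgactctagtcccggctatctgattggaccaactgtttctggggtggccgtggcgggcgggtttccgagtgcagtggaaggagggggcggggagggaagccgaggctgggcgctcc

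None of these last 3 windows held a heat shock element of 2 units, searched on both strands as GAANNTTC and TTCNNGAA. The first form was present in 7.86% and the second in 8.52% of 32851 promoter windows, either form in 15.1%, and 3 alternating units in 0.603%. The 7 members found in the table have 11 windows, 5 of them at Nfe2l1, and 0 of 11 held either form. Of 10 windows overlapped by a member's peak, including those of neighbouring genes, 0 held one. No peak summit lay inside the windows of Nfe2l1, Nfe2l2 or Atf4, so the letters at those summits were not searched. The Nfe2l1 summits lay 606 to 645 bp before its outermost start. Counted by gene and not by window, all 4 chaperone genes found in the table (8 windows) had an element of 2 units in some window. Other windows of Dnaja1 and Hspd1 held none. Of the 4 genes, 3 had an element of 3 units. Of these, Hspd1 and Hspe1 share the same element, read on opposite strands. Other matches at members were the core of an antioxidant response element, TGACNNNGC, at Nfe2l2 (240 bases before the start) and at Ppp1r15a, and a cAMP response element, TGACGTCA, at Ppp1r15a (12 bases before the start). These motifs were present in 12.4% and 1.79% of all windows. A match is a description of these letters only. Hmox1 was not in the promoter table, so no sequence of its sites is given.

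Hmox1 was the member with the strongest and most widespread HSF1 peak, called in 8 of 10 libraries. The peak lay upstream of the gene (chromosome 8, 75093618 to 75100593, taken as the plus strand from general knowledge). Its summits fell between 75089787 and 75089832, 3786 to 3831 bp before the start, and outside any other protein-coding gene. The nearest ends of other genes were those of Mcm5 and Tom1, 19663 and 19684 bp away. The fold was 64.5 and 52.2 in the KO libraries, against 52.0 and 61.1 in the second WT pair. In the time course the fold was 10.97 and 11.5 at RT and 19.1 and 9.74 in the first WT pair at 40 min, and no peak was called in either library at 4 h. The KO and second WT values overlapped, and so did those of the first WT pair and RT.

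The place of the Hmox1 upstream peak in its list was 233 of 10399 and 320 of 10633 in the KO libraries, and 442 of 12644 and 381 of 14583 in the second WT pair. These are the top 2.24% and 3.01% of the KO lists and the top 3.496% and 2.61% of the second WT lists. Over the time course it was place 210 of 919 and 237 of 1269 at RT, the top 22.9% and 18.7%, place 240 of 2287 and 620 of 1670 in the first WT pair at 40 min, the top 10.5% and 37.1%, and absent at 4 h. Against the median fold of the 6 chaperone genes in the same library, the Hmox1 fold came to 10.9% and 9.20% in the KO libraries and 7.11% and 8.48% in the second WT pair. Over time in cold it came to 9.004% and 10.04% at RT and to 9.19% and 5.04% in the first WT pair, with no peak at 4 h. Hmox1 thus stood at 5.04% to 10.9% of the chaperone level in all 8 libraries, although its fold ranged from 9.74 to 64.5. The summits of these 8 libraries fell within 45 bp of each other, where the median spread over 749 regions called in the same 8 libraries was 59 bp.

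A second Hmox1 peak at the gene start was called only in the 4 libraries with long lists. Its summits lay 26 to 102 bp before the start. The fold was 7.68 and 5.14 in the KO libraries, against 6.36 and 8.58 in the second WT pair, and the groups overlapped. The upstream peak was 8.41 and 10.2 times as high as the start peak in the KO libraries and 8.17 and 7.12 times as high in the second WT pair. The start peak stood at places 3859 and 5960 in the KO lists and 5347 and 3937 in the second WT lists, far below the upstream peak in each.

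Ddit3, which encodes CHOP, had a peak in 6 of 10 libraries, and it was the only member called in both libraries of the first WT pair and in neither at RT. The peak lay 1588 to 1663 bp before the Ddit3 start (chromosome 10, 127290793, plus strand), with 75 bp between its outermost summits. These positions are inside the annotated span of Mbd6 (127281956 to 127290869), and the median summit was 178 bp from an Mbd6 start, so the site is nearer to that gene's start than to the Ddit3 start. The fold was 12.9 and 10.0 in the KO libraries, against 18.1 and 18.2 in the second WT pair. Both KO values were lower than both WT values, as at 39.1% of the 7131 regions called in all 4 libraries. Its time course had no peak at RT, a fold of 3.62 and 5.84 in the first WT pair at 40 min, and no peak at 4 h.

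The Ddit3 peaks of the first WT pair were weak within their lists. They stood at places 2216 of 2287 and 1198 of 1670, with −log10 q of 2.54 and 8.29, and 1 of the 2 fell under a −log10 q of 5. In the long lists the same site stood at places 2138 of 10399 and 2426 of 10633 in the KO libraries and 1601 of 12644 and 1723 of 14583 in the second WT pair. A smaller peak reaching toward the Ddit3 start, with summits 48 to 482 bp before it, had a fold of 3.75 in KO replicate 2 and 4.38 and 6.52 in the second WT pair. It was not called in KO replicate 1.

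**Figure D1:**
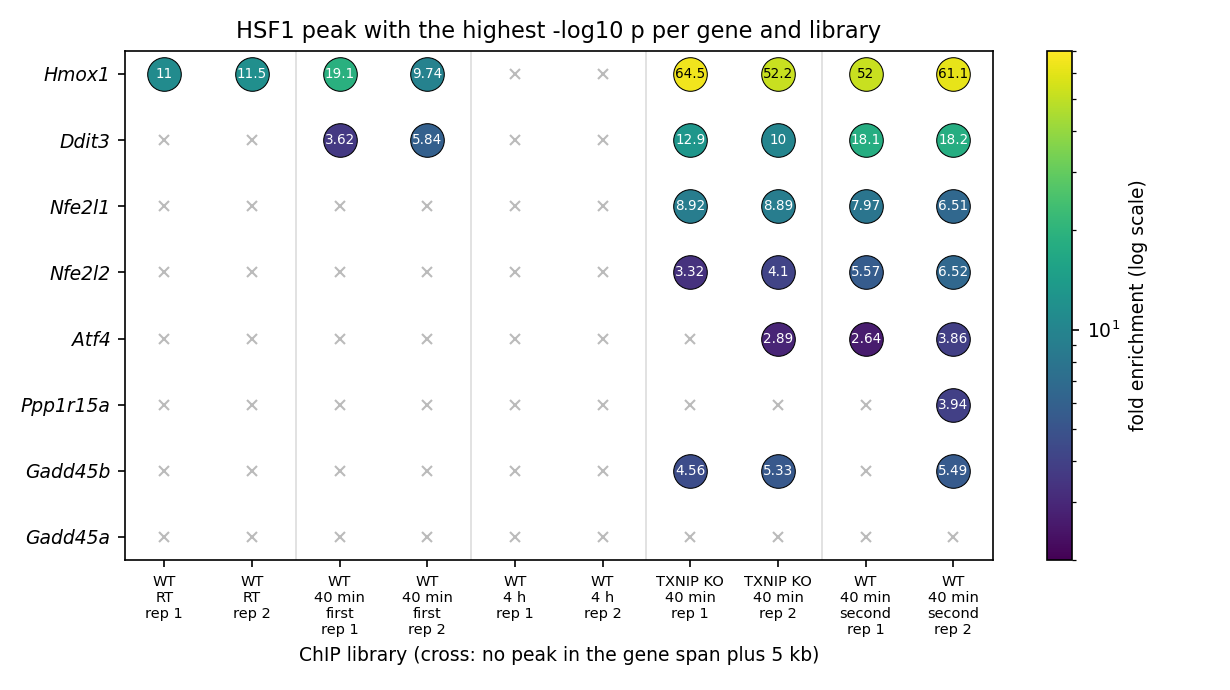
HSF1 peaks at the 8 genes in 10 ChIP libraries. Each circle gives the fold enrichment of the gene's peak with the highest −log10 p (colour on a log scale, value printed), and a cross means that no peak was called in the gene span plus 5 kb. Hmox1 has a circle in 8 libraries and Ddit3 in 6, the 4 h columns hold crosses only, and Gadd45a has none in any library.

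Nfe2l1, which encodes NRF1, had 1 peak in each of the 4 long lists and none in the other 6 libraries. Its summits lay 606 to 645 bp before the outermost start (chromosome 11, 96829968, minus strand), within 39 bp of each other. The fold was 8.92 and 8.89 in the KO libraries, against 7.97 and 6.51 in the second WT pair. Both KO values were higher than both WT values, as at 10.6% of the 7131 regions called in all 4 libraries. The peak stood at places 3273 and 3025 in the KO lists and 3760 and 4891 in the second WT lists, in the top 28.4% to 33.5% of the lists. The nearest other protein-coding gene end was 19280 bp away, at Copz2.

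Nfe2l2, which encodes NRF2, was also called only in the 4 long lists, with weaker and more scattered peaks. In the first stretch of the gene after its start (chromosome 2, 75704663, minus strand), the fold was 2.71 and 2.85 for 2 separate peaks of KO replicate 1 and 4.10 in KO replicate 2, against 5.57 and 6.52 in the second WT pair. Every KO value was lower than both WT values, a direction found at 39.1% of the 7131 shared regions. The summits of this region lay 87 to 1053 bp inside the gene and spread over 966 bp, where the median spread over 7131 regions called in all 4 libraries was 67 bp. A site deeper inside the gene, 18711 to 18978 bp after the start, had a fold of 3.32 and 4.54 in the KO libraries and 2.63 in the second WT replicate 2, with none in replicate 1. The second WT replicate 2 had another peak 2722 bp after the start with a fold of 3.77. KO replicate 1 ranked its 3 Nfe2l2 peaks at places 9936, 10186 and 10313 of 10399, near the end of its list.

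The remaining integrated stress response members had only weak peaks that the replicates did not share. Atf4, the central factor of that response, had a fold of 2.89 in KO replicate 2 and none in KO replicate 1, against 2.64 and 3.86 in the second WT pair. The peaks of the second WT pair did not overlap each other, with summits 247 and 608 bp after the Atf4 start (chromosome 15, 80255184, plus strand). Ppp1r15a, which encodes GADD34, had a single peak, in the second WT replicate 2, with a fold of 3.94 at place 10611 of 14583. Its summit lay 85 bp before the Ppp1r15a start (chromosome 7, 45526268, minus strand) and 23 bp from the start of Plekha4, which runs the other way. A peak at such a pair of opposing starts cannot be assigned to either gene.

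Gadd45b had a peak in 3 libraries and no site shared by replicates. In KO replicate 1 the peak lay downstream, 5321 bp after the start (chromosome 10, 80930091, plus strand), with a fold of 4.56. In KO replicate 2 it lay 200 bp before the start with a fold of 5.33, and in the second WT replicate 2 it lay 308 bp before the start with a fold of 5.49. The second WT replicate 1 had none. The Gadd45a span (chromosome 6, 67035096 to 67037407) plus 5 kb was free of called peaks in all 10 libraries, which says only that none passed the authors' peak calling.

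**Figure D2:**
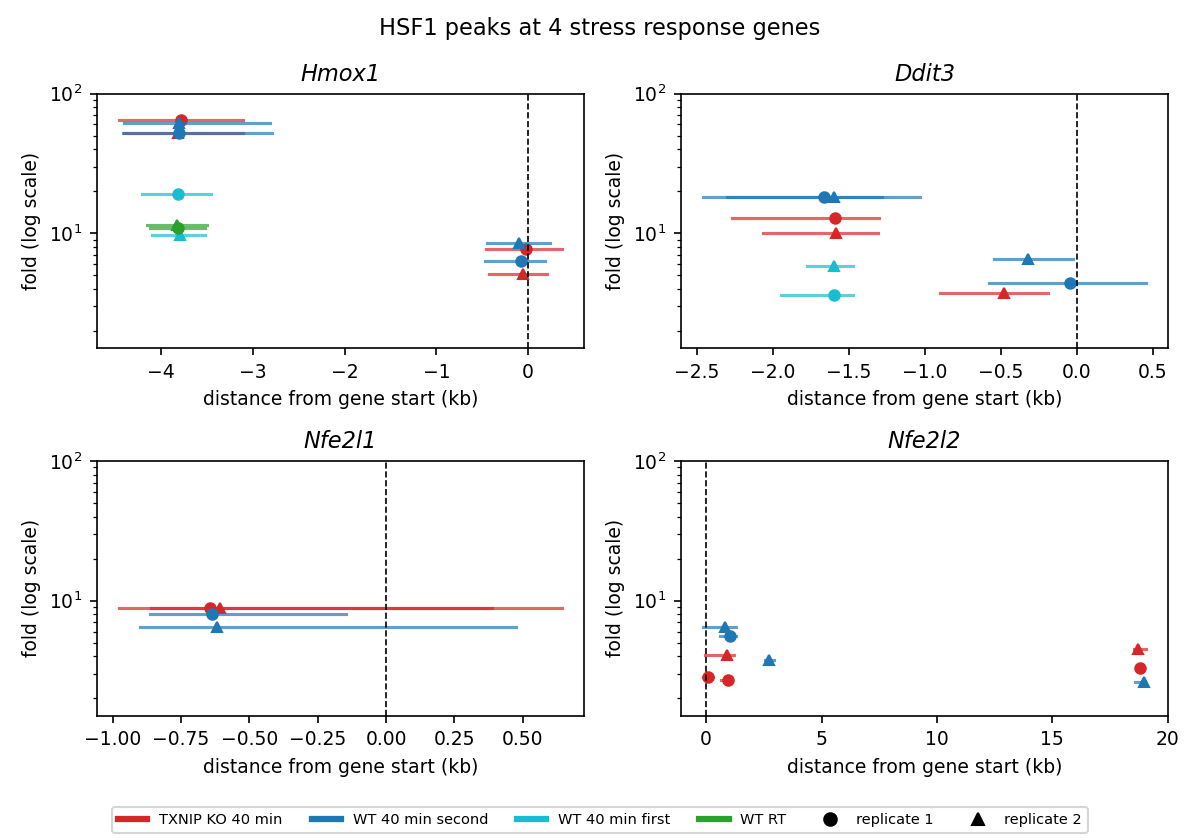
Position and fold of every peak at Hmox1, Ddit3, Nfe2l1 and Nfe2l2. The x axis is the distance from the gene start in kb, negative before the start, the y axis is fold enrichment on a log scale, horizontal bars span the peak and symbols mark the summit. The Hmox1 upstream summits of 8 libraries stack 3786 to 3831 bp before the start, and the Ddit3 upstream summits of 6 libraries 1588 to 1663 bp before it. Other summits lie nearer the starts, 26 to 102 bp before that of Hmox1 and 48 to 482 bp before that of Ddit3. The Nfe2l2 summits scatter along the gene.

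The comparison of TXNIP KO with the second WT pair asks whether HSF1 reaches different stress genes at 40 min of cold when TXNIP is missing. The KO libraries had a peak at 5 and 6 of the 8 genes (mean 5.5 ± 0.707, SD, n = 2), against 5 and 7 in the second WT pair (mean 6.0 ± 1.41, SD, n = 2). The difference of -0.5 gave p = 1.0 in a two-sided exact permutation test over libraries, which cannot give less than 0.33 with 2 against 2. Across all genes, 25.0% and 26.0% had a peak in the KO libraries, and 30.2% and 33.1% in the second WT pair. A gene counted as bound in a group when a region in its window held a peak of both replicates. Hmox1, Ddit3, Nfe2l1 and Nfe2l2 were bound in both groups, 4 of 8, while 20.5% of all genes were bound in the KO and 26.0% in the second WT pair. Without the second WT replicate 2, the library with the longest list, the difference in members per library turned to 0.5.

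No member was called in both KO libraries and in neither second WT library, and none the other way round. Of all genes, 0.302% were called in this way in the KO alone and 2.81% in the second WT pair alone. With the first WT pair as the control, 3 members (Nfe2l1, Nfe2l2 and Gadd45b) were called in the KO alone, against 13.4% of all genes. The KO lists are the longer ones in that comparison, and the Gadd45b peaks of the KO libraries lay at separate sites. Ordering the 7131 regions called in all 4 libraries by −log10 p puts the same sites on 1 scale in each list. The Hmox1 upstream region stood at places 233 and 319 in the KO and 441 and 381 in the second WT pair. The Nfe2l1 region stood at places 3236 and 3001 in the KO and 3629 and 4580 in the second WT pair. Both regions had a better place in both KO libraries, as did 22.2% of the 7131 regions. The Ddit3 region stood at places 2130 and 2415 in the KO and 1595 and 1714 in the second WT pair, and the Nfe2l2 region at 7088 and 5974 in the KO and 5361 and 4906 in the second WT pair. Both had a worse place in both KO libraries, as did 19.5% of the regions. The Hmox1 start region stood at places 3776 and 5403 in the KO and 4854 and 3803 in the second WT pair, and there the groups overlapped. Of 5 member regions, 2 thus had a better place and 2 a worse one in both KO libraries, with no test of single regions.

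The time course asks where HSF1 sits before cold, after 40 min and after 4 h. At RT, 1 of the 8 genes had a peak in each library, Hmox1 in both, while 3.25% and 4.3% of all genes had one. The first WT pair at 40 min had a peak at 2 and 2 members, Hmox1 and Ddit3, while 7.21% and 5.46% of all genes had one. At 4 h, 0 and 0 members had a peak, against 0.493% and 1.27% of all genes. The share of genes bound by a region of both replicates was 2.92% at RT, 4.94% in the first WT pair and 0.466% at 4 h, beside 1, 2 and 0 of the 8 members. The first WT pair differed from RT by 1.0 member per library, 4 h differed from RT by -1.0 and 4 h from the first WT pair by -2.0. The peaks of Hmox1 and Ddit3 lay more than 1 kb from the genes, so with windows of 1 kb each of these differences was 0. With 5 kb each gave p = 0.33 in a two-sided exact permutation test, the smallest value that 2 libraries against 2 allow.

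Ddit3 was gained in the first WT pair over RT, as were 1.1% of all genes, and no member was lost there, where 0.0137% of all genes were. The median summit of the Ddit3 site was 178 bp from an Mbd6 start. Its peak in the first WT replicate 1 had a −log10 q of 2.54. Hmox1 was called in all 4 libraries of the first WT pair and RT. Among the 756 regions shared by the first WT pair and RT, the Hmox1 region stood at places 232 and 533 in the first WT pair and 209 and 235 at RT. The first WT replicate 1 and RT replicate 2 lay close together, and the groups overlapped. The better place in both 40 min libraries was found for 24.1% of these regions and the worse place in both for 25.7%.

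Hmox1 was lost at 4 h relative to RT, as were 1.87% of all genes, or 63.4% of the 645 genes with a peak in both RT libraries. No member was gained there, where 0.00914% of all genes were. Hmox1 and Ddit3 were lost at 4 h relative to the first WT pair, as were 3.73% of all genes, or 75.2% of the 1087 genes with a peak in both libraries of that pair. No member was gained, with 0.00457% of all genes gained. These comparisons share libraries with each other. In the same 4 h libraries the 6 chaperone genes kept their peaks, with median folds of 24.9 and 49.0, against medians of 122 and 115 at RT.

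The strength of a peak before 4 h went along with whether a 4 h library still called it. The RT lists were cut into 4 equal parts by −log10 p, and of the strongest part 63.5% and 59.7% of the peaks overlapped a peak of either 4 h library. Of the weakest part 14.4% and 4.73% did. Hmox1 at RT stood in the strongest part of both lists, toward its lower end (place 210 of 230 in replicate 1 and 237 of 318 in replicate 2), and was among the peaks not called again. In the first WT pair it stood in the strongest part of replicate 1, of which 47.0% were called again, and in the second part of replicate 2, of which 17.7% were. The Ddit3 peak of that pair stood in the weakest part of replicate 1, of which 1.58% were called again, and in the third part of replicate 2, of which 5.26% were. With all 10 lists cut to their 123 strongest peaks, the length of the shortest, no member had a peak in any library.

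**Figure D3:**
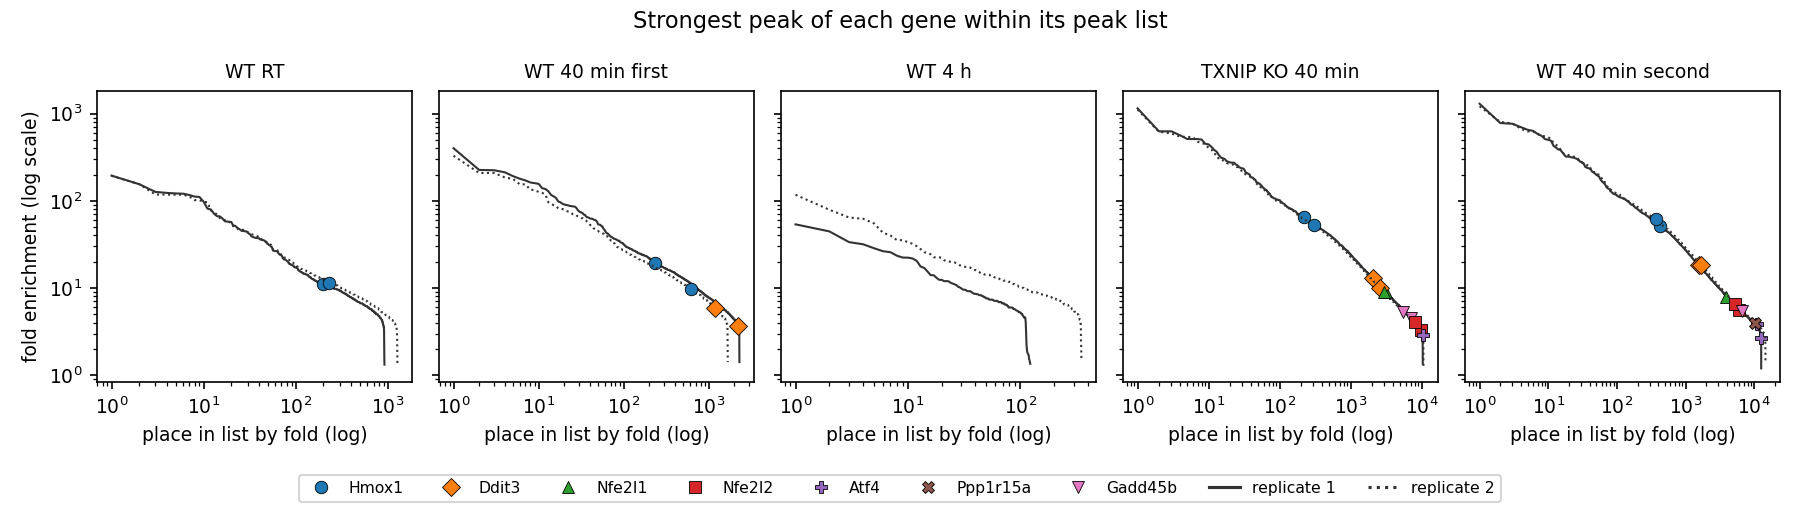
Place of each member's peak within its own list. Grey lines give the fold of all peaks of a library against their place by fold (both axes log; solid line replicate 1, dotted line replicate 2), and symbols mark the member's peak with the highest −log10 p. Hmox1 lies above the other members on the KO and second WT curves at folds of 52.0 to 64.5, and the 4 h panel holds no symbol.

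The WT pairs at 40 min carry the same labels for genotype and cold, so this comparison shows how far 2 pairs with equal labels can differ. The second WT pair had a peak at 5 and 7 members, against 2 and 2 in the first. This difference of 4.0 per library gave p = 0.33 in the two-sided exact permutation test. Of all genes, 30.2% and 33.1% had a peak in the second pair, against 7.21% and 5.46% in the first. With lists of equal length the difference in members was 0.0. Nfe2l1, Nfe2l2 and Atf4 were called in both libraries of the second pair and in neither of the first, as were 18.9% of all genes, and none the other way round (0.00457% of all genes). Among 1461 regions shared by both pairs, the Hmox1 upstream region stood at places 439 and 381 in the second pair, against 239 and 612 in the first. The Ddit3 region stood at places 1299 and 1328 in the second pair, against 1452 and 1153 in the first. Both regions overlapped between the pairs in this order, although the Hmox1 fold had a range of 52.0 to 61.1 in the second pair and of 9.74 to 19.1 in the first. A better place in both libraries of the second pair was found for 18.4% of these regions and a worse place in both for 20.0%.

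Other genes of the same pathways were described from 4 lists of 75 genes in all. A region of both replicates was found at 32 of 75 (42.7%) in the KO and 38 of 75 (50.7%) in the second WT pair, where 20.5% and 26.0% of all genes had one. In the time course it was found at 2 of 75 (2.67%) at RT, 6 of 75 (8.0%) in the first WT pair and 0 of 75 at 4 h, where 2.92%, 4.94% and 0.466% of all genes had one. In the first WT pair the share was 8.0% for the integrated stress response list and 4.0% for the NRF2 list. It was 9.09% for the unfolded protein response list and 14.3% for the GADD45 list. At RT the shares of these lists, in the same order, were 4.0%, 0.0%, 0.0% and 7.14%. Gene spans of different lengths enter these shares, and 7 of the 8 members are shorter than the median protein-coding gene of 17169 bp.

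Of 25 further integrated stress response genes, 8 were bound in the KO and 11 in the second WT pair. The time course had 1 at RT, 2 in the first WT pair and 0 at 4 h. Nupr1, a small stress-induced chromatin protein, led them with a peak 3159 to 3203 bp from the nearer end of the gene. Its fold was 39.4 and 33.2 in the KO, against 38.0 and 43.1 in the second WT pair. In the time course it was 5.72 and 4.49 at RT and 4.83 and 9.46 in the first WT pair, with none at 4 h. Nupr1 resembled Hmox1 in being called in the same 8 libraries. Ppp1r15b, the constitutive counterpart of GADD34 in eIF2α dephosphorylation, had a fold of 27.4 and 20.7 in the KO and 19.03 and 20.02 in the second WT pair, 156 to 180 bp from the nearer gene end, where Ppp1r15a had a single weak peak. Ddit4, an inhibitor of mTORC1, had 15.6 and 14.4 in the KO and 15.5 and 23.8 in the second WT pair. The first WT replicate 1 alone in the time course called these 2 genes, with 4.11 at Ppp1r15b and 4.35 at Ddit4. Gdf15, a stress-induced circulating cytokine, had 16.2 and 14.03 in the KO and 14.5 and 14.8 in the second WT pair. Its time course had 4.49 in RT replicate 2 and 6.04 and 6.12 in the first WT pair, with none at 4 h.

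Of 25 NRF2 and antioxidant genes, 13 were bound in the KO and 13 in the second WT pair, with 0 at RT, 1 in the first WT pair and 0 at 4 h. Osgin1, an oxidative stress-induced growth inhibitor, was the gene bound in the first WT pair, where the strongest peaks had folds of 7.97 in replicate 1 and 7.24 in replicate 2. They lay at different sites, 5271 bp from the nearer gene end inside the gene and 2175 bp outside it, and the site called in both replicates was the one inside. Osgin1 had 24.7 and 23.7 in the KO and 26.3 and 25.9 in the second WT pair. It was also called in RT replicate 1, with 4.29 at the site outside the gene. Txnrd1, the cytosolic thioredoxin reductase, had 24.7 and 27.9 in the KO and 27.9 and 33.4 in the second WT pair, at a site inside the gene. It was also called there with 5.96 in RT replicate 1 and 7.25 in the first WT replicate 1. Sod1, the cytosolic superoxide dismutase, had 18.5 and 20.3 in the KO and 16.3 and 20.5 in the second WT pair, with 4.88 in RT replicate 2 and 6.08 in the first WT replicate 1. Prdx1, a peroxiredoxin, had 11.6 and 11.7 in the KO and 7.76 and 11.7 in the second WT pair. The Nfe2l2 folds of 2.63 to 6.52 in these 4 libraries were below the folds of each of these 4 genes.

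Of 11 sensors of the unfolded protein response and genes of the proteasome bounce back, 5 were bound in the KO and 8 in the second WT pair, with 0 at RT, 1 in the first WT pair and 0 at 4 h. Ddi2, the protease that activates NRF1, had a fold of 15.1 and 17.6 in the KO and 20.5 and 19.7 in the second WT pair, and it was the gene bound in the first WT pair (6.04 and 6.40). In the KO and second WT libraries Ddi2 was thus higher than Nfe2l1 itself. Ngly1, the glycanase that edits NRF1, had 6.02 and 3.16 in the KO and 4.58 and 4.15 in the second WT pair. Atf6, a sensor of the endoplasmic reticulum, had 5.59 and 6.17 in the KO and 7.17 and 8.58 in the second WT pair. Xbp1, Creb3 and Creb3l2, factors activated by cleavage or splicing, stayed at folds of 3.26 to 4.65 where called.

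Of 14 GADD45 and DNA damage genes, 6 were bound in the KO and 6 in the second WT pair, with 1 at RT, 2 in the first WT pair and 0 at 4 h. Gadd45g, the paralog of the 2 GADD45 members, had a peak 1071 to 1100 bp from the nearer gene end in 6 libraries. Its fold was 34.4 and 33.8 in the KO and 31.5 and 40.1 in the second WT pair, and 12.8 and 10.6 in the first WT pair. Among the GADD45 genes, Gadd45g therefore carried the replicated site, Gadd45b unreplicated weak peaks and Gadd45a none. Sesn1, a sestrin that restrains mTORC1, had 36.5 and 42.3 in the KO and 39.2 and 52.7 in the second WT pair. In the time course its fold was 8.82 and 7.61 at RT and 13.0 and 10.6 in the first WT pair, with no peak at 4 h. Btg1, an antiproliferative factor, had 15.97 and 16.8 in the KO and 14.3 and 16.98 in the second WT pair, and Plk3, a stress-induced kinase, had 7.30 and 7.65 in the KO and 7.72 and 8.97 in the second WT pair.

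**Figure D4:**
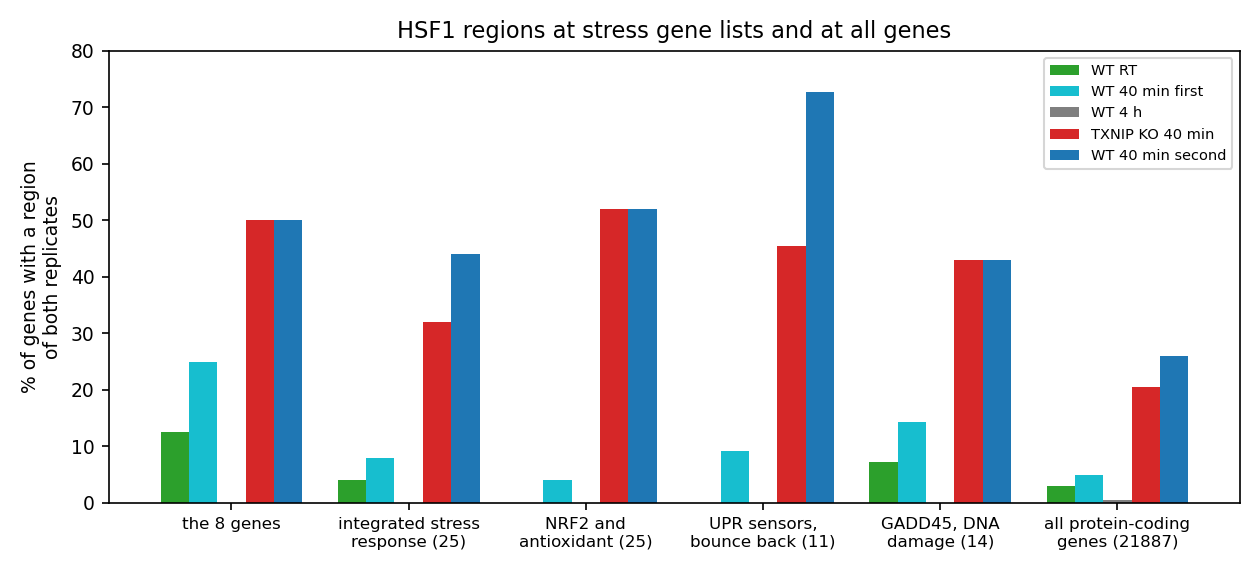
Share of genes with an HSF1 region of both replicates, as % of the genes on each list, by group. Bars start at 0 and have no error, since each is 1 count over 2 libraries. The 4 stress lists and the 8 genes reach higher shares in the KO and second WT libraries than all 21887 genes (20.5% and 26.0%), and none of them has a bar at 4 h.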

How the data were processed

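HSF1 binding was measured by ChIP-seq in 10 BAT libraries. Tools named in the submitters' processing notes, with no order or role, are MACS2 2.2.7.1, BWA 0.7.17, Trim Galore 0.6.0, deepTools 3.4.3 and SAMtools, with GRCm38.p6 as the genome. The sources used here do not give the filters, the handling of duplicates or the input behind each library, so folds of different libraries may rest on different backgrounds. The authors deposited 1 peak list per library, with replicates kept apart. The deposited columns used here are the fold enrichment, a linear ratio, the summit position and the caller's −log10 of the p-value and the q-value, with a lowest −log10 q of 1.30 over all lists. No counts are in the lists, so depth per library is unknown and no counting interval is given.

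Repeated entries of 1 peak were merged, and peaks off the 19 autosomes, X and Y (1 to 8 per list) were left out. Positions are 1-based. Gene spans were 21887 protein-coding genes of a RefSeq table for GRCm38, extended by 5 kb, and start sites and strands came from the RefSeq promoter table, which held 7 of the 8 members. Peaks sharing 1 bp or more were joined into a region. A gene was bound when a region held a peak of both replicates. It was gained when the first group named had a peak at it in both libraries and the other group in neither, and lost in the opposite case. The number of members with a peak was compared over libraries by an exact permutation test, two-sided. The overlap steps were tested on simulated data, and the rank steps were not. All 8 members are named. Of the wider lists, genes bound at RT, in the first WT pair or at 4 h are named, with up to 4 per list by the better worse rank in the KO and in the second WT pair. The members, gene lists and tests were chosen with earlier results of these data known. Alternatives were windows of 0, 1 and 10 kb, summits in place of peaks, a −log10 q of at least 5, lists of equal length, an overlap of 50%, leaving out each library, the other WT control, the replicate block and another order of peaks. The title and the treatment label of 1 input name different conditions, and it entered no group. Python 3.11.15 with pandas 2.3.3, numpy 2.4.6 and matplotlib 3.10.9 was used.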

Additional observations from a re-analysis of the deposited data

Results flagged for a closer look

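The number of the 8 genes with a peak moved in opposite directions at the 2 times of cold. It differed from RT by 1.0 per library in the first WT pair at 40 min, where both libraries had Hmox1 and Ddit3, and by -1.0 at 4 h, where neither library had a member. Every library of the first WT pair had more members than either RT library, and every 4 h library had fewer. The share of all genes with a peak moved in the same directions. It was 3.25% and 4.3% at RT, 7.21% and 5.46% in the first WT pair, and 0.493% and 1.27% at 4 h. Both differences in members were 0 with gene spans alone, with 1 kb windows and with lists of equal length. The difference between the 2 effects was not tested, and both share the RT libraries. Each rests on a single gene, Hmox1 at 4 h and Ddit3 at 40 min, the latter at a site nearer to an Mbd6 start.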

How the results depend on the processing

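Over 25 results, 212 alternative values were computed, of which 169 were classed as the same, 42 moved and 1 reversed. The same meant an equal sign for a difference, whatever its size, and a similar but not always equal size for a count or a place. The members bound per group (4 in the KO, 4 in the second WT pair, 1 at RT, 2 in the first WT pair and 0 at 4 h) were the same with 10 kb windows, with summits and with 50% overlap. With lists cut to 123 peaks they were 0 in every group, since no member had a peak among the 123 strongest of any list. Cutting a list can only lower this count. With gene spans alone they were 2 in the second WT pair, which dropped Ddit3 and Nfe2l1. In the KO they were 3 with gene spans alone, with 1 kb windows and with a −log10 q of at least 5. The second WT pair kept 4 with 1 kb windows and with that −log10 q, so the equal counts did not hold there. With gene spans alone and with 1 kb windows they were 0 at RT and 0 in the first WT pair, whose Hmox1 and Ddit3 sites lie farther out. A −log10 q of at least 5 left 1 in the first WT pair. With a replicate left out, any peak of the remaining library was enough to count, which is a looser rule than a region of both replicates. Leaving out each replicate in this way gave 5 to 6 in the KO, 5 to 7 in the second WT pair, 1 to 1 at RT, 2 to 2 in the first and 0 to 0 at 4 h.

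Differences in members per library were 0 with lists of equal length for the KO against the second WT pair, the first WT pair against RT, 4 h against RT, 4 h against the first WT pair and the second against the first. They were also 0 with gene spans alone and with 1 kb for the first WT pair against RT, 4 h against RT and 4 h against the first. Leaving out a replicate, the KO difference of -0.5 ranged from -1.5 to 0.5 (0.5, the reversed value, without the second WT replicate 2, and 0.0 without KO replicate 1). The others ranged from 1.0 to 1.0 for the first WT pair against RT, -1.0 to -1.0 and -2.0 to -2.0 for 4 h against RT and against the first WT pair, and 3.0 to 5.0 for the second against the first.

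Members gained or lost also depended on the settings. With a replicate left out, the call for that pair rested on its remaining library alone. The Ddit3 gain over RT (1) was 0 with gene spans alone, with 1 kb, with −log10 q of at least 5 and with equal lists. The Hmox1 loss at 4 h against RT (1) was 0 with gene spans alone, with 1 kb and with equal lists. The 2 losses at 4 h against the first WT pair were 0 under those 3 settings and 1 with −log10 q of at least 5. The second WT pair gained 3 members over the first, 5 with 1 kb, 0 with equal lists and 3 to 5 leaving out a replicate (5 without the second WT replicate 1). KO gains of 0 became 3 with the first WT pair as control, where 13.4% of all genes were gained and the KO lists are longer, and leaving out a replicate gave 0 to 1 gained and 0 to 1 lost (1 lost without KO replicate 2 or the second WT replicate 1, and 1 gained without the second WT replicate 2). The cause of these single changes was not tested.

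The mean place of Hmox1 among regions of the KO and second WT pair was 4.82% from the top, and 62.5% when its peak nearest the gene was taken instead, which is the start peak. The fit with the replicate block, pairing equal replicate numbers, gave the same differences, with an exact p of 1.0 for the KO and 0.5 for the others, the smallest that 2 pairs allow. The labels do not say that equal numbers mark a shared animal or day, and with 2 pairs no check of the pairing was made. Depth is unknown, so the absence of a peak, at 4 h above all, does not show that HSF1 was absent.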
